A study of Mus musculus with 2 samples.

Results

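A set of 8 genes of T cell costimulation were followed among the 32285 genes counted in 2 single-cell RNA-seq libraries of mouse pancreatic tumors. The list was fixed by name: 4 receptors of the TNF receptor superfamily on lymphocytes (Tnfrsf9, which encodes 4-1BB; Tnfrsf4, which encodes OX40; Tnfrsf18, which encodes GITR; Cd27), 2 receptors of the CD28 family (Cd28 and Icos), and the ligand-receptor pair Cd40lg and Cd40. All 8 members were counted in both libraries. T cells need a signal beside antigen to respond in full. CD28 gives that signal at priming when it binds CD80 or CD86 on antigen-presenting cells, while ICOS and the TNF receptor family members act mostly on cells that have already met antigen, and CD40 works in the other direction, since CD40 ligand on helper T cells licenses dendritic cells, macrophages and B cells. The TNF receptor family members bind TRAF adaptors and switch on NF-kB, whereas CD28 and ICOS recruit phosphoinositide 3-kinase. OX40, GITR and 4-1BB are also known from regulatory T cells of tumors.

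KPC cells, a pancreatic cancer line, were injected into the pancreas of male mice to form the tumors. The methods name C57BL/6 mice without tying them to these groups. The library labelled FLOX came from control mice with floxed MCT1, and the library labelled MCT1-KO from mice in which tamoxifen-activated Cre under the Col1a2 promoter removes the lactate transporter MCT1 (gene Slc16a1) from fibroblast-like cells such as pancreatic stellate cells (PSC). That Cre is not carried by the tumor line, and the series asked how lactate entry into PSC bears on the immune cells of the tumor. Tamoxifen or corn oil was injected before the KPC cells. The sources do not state which of them the mice of each library received, so dosing may differ between the libraries. There was 1 library per label, unsorted cells were loaded, and the sources used here do not state how many mice went into each library or their age at harvest. A difference between the libraries therefore has no replicate check: no test was run, and each interval below covers counting error only, in sequencing reads collapsed to unique molecular identifiers (UMIs).

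After filters, 8739 FLOX and 11689 MCT1-KO cells remained, with a median of 4069 and 3706 UMIs per cell, and 59 cell barcodes occurred in both libraries (0.675% and 0.505% of cells). The targeted gene did not follow its label in PSC-like cells, where Slc16a1 was at 25.5 CPM (counts of the gene scaled to 1000000 UMIs) in FLOX and 35.5 CPM in MCT1-KO (ratio 1.39, 95% interval 1.00 to 1.94), so "the library labelled MCT1-KO" is meant wherever MCT1-KO is written. The 3' tags need not lie in the deleted part of the gene. The ratio rested on 57 FLOX and 112 MCT1-KO UMIs. By their own marker UMIs, 78.6% of FLOX and 58.4% of MCT1-KO cells of the PSC-like clusters were PSC-like. The part of other cells and of free RNA in this ratio was not tested. T/NK-like cells numbered 534 in FLOX and 480 in MCT1-KO, of which 321 and 221 were CD8+ T cells (a UMI of Cd8a or Cd8b1 and none of Cd4), 67 and 73 were CD4+ T cells (a Cd4 UMI and none of Cd8a or Cd8b1), and 21 and 30 were NK cells (a UMI of Ncr1 or Klrb1c and none of Cd3d, Cd3e or Cd3g). All 9 T/NK markers were detected in the T/NK-like cells of both libraries. Free RNA differed between the libraries: among barcodes with 10 to 100 UMIs, taken here to hold no intact cell, 8 acinar genes summed to 285 CPM in FLOX and 15020 CPM in MCT1-KO.

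The promoters of 3 members of the TNF receptor family are shown because these genes lie on one chromosome and 2 of them are near neighbors. Tnfrsf4 (ENSMUSG00000029075, chr4:156013843-156016612) and Tnfrsf18 (ENSMUSG00000041954, chr4:156026164-156028895) were separated by 9.55 kb on the plus strand of GRCm38, and Tnfrsf9 (ENSMUSG00000028965, chr4:150914562-150946102) lay on the same strand of that chromosome. The windows below run from 250 bases before to 50 after each RefSeq start (GRCm38.p6, plus strand, 5' to 3'), and capitals mark letters that matched one of 6 motifs searched on both strands.
Tnfrsf9, first start, chr4:150919905-150920204: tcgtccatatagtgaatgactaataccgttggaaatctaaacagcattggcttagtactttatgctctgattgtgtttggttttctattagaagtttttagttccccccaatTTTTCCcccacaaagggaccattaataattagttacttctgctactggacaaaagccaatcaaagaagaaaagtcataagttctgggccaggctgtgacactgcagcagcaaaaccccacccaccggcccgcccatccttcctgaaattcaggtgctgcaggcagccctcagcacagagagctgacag
Tnfrsf9, second start, chr4:150927749-150928048: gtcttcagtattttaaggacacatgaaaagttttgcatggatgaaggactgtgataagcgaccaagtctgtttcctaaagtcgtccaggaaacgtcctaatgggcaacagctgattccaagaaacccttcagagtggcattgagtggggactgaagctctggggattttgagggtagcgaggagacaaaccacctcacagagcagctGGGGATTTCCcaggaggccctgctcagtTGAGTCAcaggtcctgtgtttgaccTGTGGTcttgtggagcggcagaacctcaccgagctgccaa
Tnfrsf4, chr4:156013445-156013744: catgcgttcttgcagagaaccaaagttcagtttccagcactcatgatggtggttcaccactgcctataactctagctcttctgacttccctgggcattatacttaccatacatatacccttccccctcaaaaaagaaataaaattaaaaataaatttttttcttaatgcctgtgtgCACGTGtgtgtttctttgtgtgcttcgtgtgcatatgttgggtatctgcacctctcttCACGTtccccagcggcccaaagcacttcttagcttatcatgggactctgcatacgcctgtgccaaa
Tnfrsf18, chr4:156026072-156026371: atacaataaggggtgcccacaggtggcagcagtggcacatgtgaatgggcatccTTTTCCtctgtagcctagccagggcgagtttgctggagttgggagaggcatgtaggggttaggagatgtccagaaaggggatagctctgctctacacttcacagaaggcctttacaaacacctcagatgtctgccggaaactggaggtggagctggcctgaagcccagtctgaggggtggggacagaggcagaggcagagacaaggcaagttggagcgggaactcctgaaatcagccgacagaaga
The second Tnfrsf9 start held the NF-kB letters (GGG, any 3 bases, then TTCC) at -43, the AP-1 letters TGANTCA at -15 and the RUNX letters TGTGGT at 10, counted from the start. Those motifs occur in 5.56%, 7.81% and 16.8% of 32851 promoter windows of the same length. The NFAT letters GGAAAA, present in 23.4% of windows, matched on the minus strand at -138 of the first Tnfrsf9 start and at -196 of Tnfrsf18, and at -52 of Cd27. The Tnfrsf4 window held the hypoxia response letters ACGTG at 3 positions (-74 and -73, which overlap on opposite strands, and -16), against 19.6% of windows with at least 1 match. None of the 5 windows held the forkhead letters GTAAACA, which are in 3.65% of windows. A match describes the letters only. Icos, Cd28, Cd40 and Cd40lg had no window in the table used here. On chromosome 1, Cd28 (60716800 to 60773359), Ctla4 and Icos (60977927 to 61000320) lay in a row, with 114 kb between Cd28 and Ctla4 and 62.1 kb between Ctla4 and Icos.

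Among the 8, 7 members were T cell genes in these tumors and Cd40 was not. T/NK-like cells held 92.0% of the UMIs of Cd40lg (115 of 125), 87.8% of those of Cd27 (412 of 469), 87.7% of Icos (1058 of 1206), 84.3% of Cd28 (953 of 1131), 80.6% of Tnfrsf4 (820 of 1017) and 78.0% of Tnfrsf18 (833 of 1068). Cd40 was the reverse, with 78.6% of its UMIs (1097 of 1395) in myeloid-like cells and 2 UMIs in all T/NK-like cells. Tnfrsf9 had its highest level in T/NK-like cells but only 38.04% of its UMIs (1880 of 4942) there, and 46.4% (2292) in ductal-like cells. Levels are UMI counts of 3' tags in CPM of all UMIs of the cells named, and are not divided by gene length, so they order cell classes for a gene and not genes within a class.

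**Figure D1:**
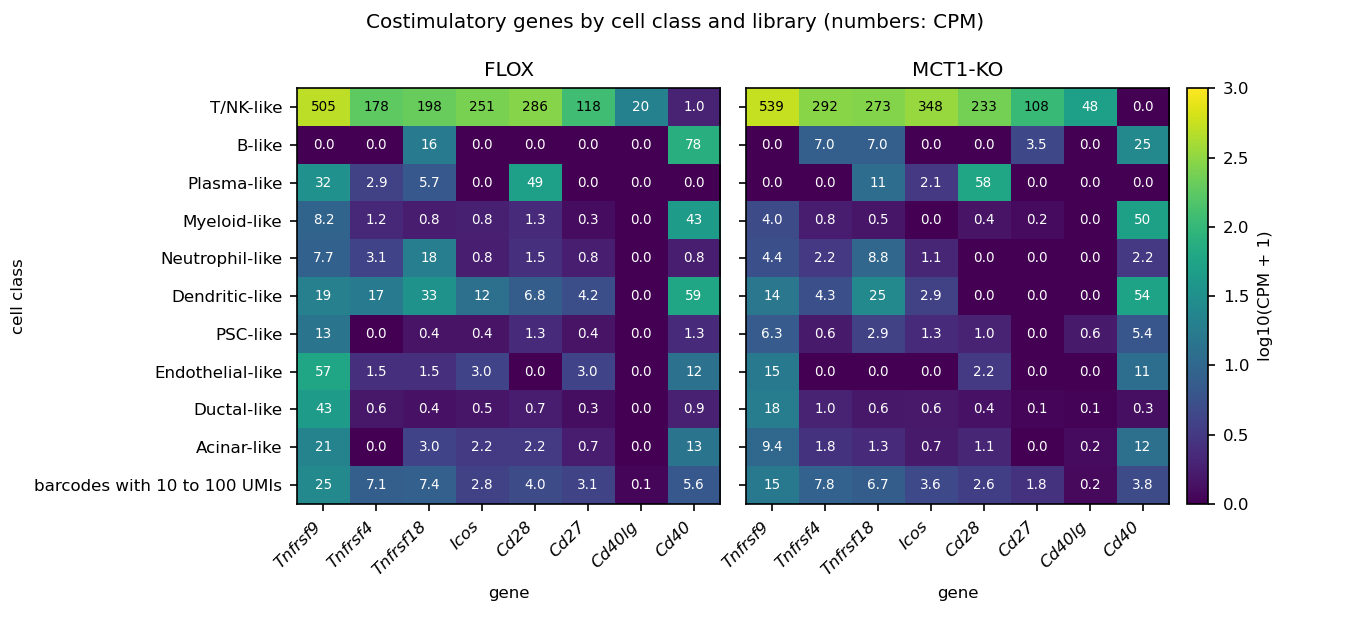
Level of the 8 genes (columns) in each cell class and in barcodes with 10 to 100 UMIs (rows), for FLOX (left) and MCT1-KO (right); color is log10(CPM + 1) and the printed numbers are CPM. The T/NK-like row is brightest for 7 genes, Cd40 is brightest in dendritic-like, myeloid-like and B-like cells, and Tnfrsf9 also shows a low level across many other classes.

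Tnfrsf9 stood at 505 CPM in FLOX T/NK-like cells (1048 UMIs, 95% interval 475 to 537) and 539 CPM in MCT1-KO (832 UMIs, 503 to 577), a ratio of 1.07 (0.972 to 1.17). These intervals overlap. Tnfrsf4 stood at 178 CPM (369 UMIs, 160 to 197) and 292 CPM (451 UMIs, 266 to 320), a ratio of MCT1-KO over FLOX of 1.64 (1.43 to 1.89). Tnfrsf18 stood at 198 CPM (411 UMIs, 179 to 218) and 273 CPM (422 UMIs, 248 to 301), a ratio of 1.38 (1.20 to 1.58). For Tnfrsf4 and Tnfrsf18 the MCT1-KO library was the higher and the intervals did not overlap. Cd27, which is carried by resting as well as activated T cells, was at 118 CPM in FLOX (245 UMIs) and 108 CPM in MCT1-KO (167 UMIs), with a ratio of 0.915 (0.747 to 1.12).

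The CD28 family members differed from each other. Icos was at 251 CPM in FLOX (521 UMIs) and 348 CPM in MCT1-KO (537 UMIs), a ratio of 1.38 (1.22 to 1.56). Cd28 was at 286 CPM (593 UMIs, 263 to 310) and 233 CPM (360 UMIs, 210 to 258), a ratio of 0.815 (0.713 to 0.931). Cd28 was thus the lower and Icos the higher in MCT1-KO. Cd40lg, the helper signal to antigen-presenting cells, rested on few UMIs, with 41 UMIs in FLOX (19.8 CPM, 14.2 to 26.8) and 74 UMIs in MCT1-KO (47.9 CPM, 37.6 to 60.2), a ratio of 2.42 (1.63 to 3.64). Of the 7 members with at least 50 UMIs over both libraries, Tnfrsf4 and Cd40lg (2 of 7) were past 1.5-fold higher in MCT1-KO and 0 were past 1.5-fold lower, against 6.03% of 7195 genes higher and 9.51% lower. The median ratio of the 7 was 1.38, and that of the 7195 genes 0.970. Cd40 was under the minimum of 50 UMIs.

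The share of cells with a UMI gave the same order of libraries for most members. A UMI of Tnfrsf9 was found in 51.9% of FLOX and 47.7% of MCT1-KO T/NK-like cells, with median depths of 3000.5 and 2438.5 UMIs. After each cell was thinned to 1000 UMIs, which left out 29 FLOX and 40 MCT1-KO cells, the Tnfrsf9 share was 31.1% in both libraries. The thinned share of Tnfrsf4 was 12.5% in FLOX and 19.8% in MCT1-KO (25.5% and 34.0% before thinning), that of Tnfrsf18 15.4% and 20.5% (35.6% and 40.0%), and that of Icos 21.6% and 28.9% (47.6% and 49.4%). These shares were higher in MCT1-KO. For Cd28 the thinned share was 26.1% and 22.7% (53.7% and 44.4% unthinned), for Cd27 11.9% and 9.32% (30.7% and 25.8%), and for Cd40lg 2.57% and 5.45% (4.31% and 8.75%). In ductal-like cells, which should lack these receptors and had median depths of 15807 and 15906 UMIs, the thinned shares of the 6 members other than Tnfrsf9 were at most 0.174%, while Tnfrsf9 reached 4.03% and 1.78%. The highest count in 1 T/NK-like cell was 28 UMIs of Tnfrsf9 in FLOX and 24 in MCT1-KO.

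Other RNA differed between the libraries in the same cells. The 10 myeloid markers summed to 971 CPM in FLOX T/NK-like cells and 447 CPM in MCT1-KO, and the 8 acinar markers to 117 and 2427 CPM, while the B cell marker Ms4a1 was at 0. Of 7 genes of the heat shock and immediate early response, which are known to respond to tissue handling, 6 were past 1.5-fold lower in MCT1-KO, where 9.51% of all genes were (median ratio 0.272, against 0.970), with Hspa1a at 467 and 22.01 CPM. The part of these shifts in the members' ratios was not tested. With free RNA estimated from the acinar genes and subtracted, Tnfrsf9 (ratio 0.763), Tnfrsf18 (0.982) and Icos (0.978) crossed to below 1 and Tnfrsf4 was at 1.17, but that estimate took 40.9% of FLOX and 16.2% of MCT1-KO T/NK-like UMIs. Cd28 (0.577) and Cd27 (0.650) fell too, and all these ratios fell by nearly the same factor. The fall was thus not particular to the genes that crossed, and no value over all genes after the subtraction is given here.

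Within CD8+ T cells, Tnfrsf4 was higher and Cd28 lower in MCT1-KO. Tnfrsf4 was at 89.5 CPM in FLOX (113 UMIs) and 180 CPM in MCT1-KO (159 UMIs), a ratio of 2.01 (1.57 to 2.58), and Cd28 was at 337 CPM (425 UMIs) and 214 CPM (189 UMIs), a ratio of 0.636 (0.533 to 0.756). Tnfrsf9 was at 474 CPM (598 UMIs, 436 to 513) and 581 CPM (513 UMIs, 532 to 633), a ratio of 1.23 (1.09 to 1.38). Tnfrsf18 had 152 and 212 CPM (ratio 1.39, 1.13 to 1.71), Icos 217 and 280 CPM (1.29, 1.08 to 1.54) and Cd27 131 and 126 CPM (0.956, 0.745 to 1.22). Of these 6 members with at least 50 UMIs, 1 was past 1.5-fold higher (Tnfrsf4) and 1 past 1.5-fold lower (Cd28), beside 6.72% and 10% of 5345 genes. Their median ratio was 1.26, against 0.979 over the 5345 genes. Cd40lg had 1 UMI in FLOX CD8+ T cells and none in the 221 MCT1-KO cells, which allows a share of cells with a UMI of up to 1.66%. Cd40 had none in either library. After the same subtraction the CD8+ ratios of Tnfrsf9 (0.760), Tnfrsf18 (0.861) and Icos (0.785) were below 1, while Tnfrsf4 (1.26) and Cd28 (0.387) kept their sides. That subtraction took 48.4% of FLOX and 14.9% of MCT1-KO CD8+ T cell UMIs, and it lowered all these ratios by nearly the same factor.

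Within CD4+ T cells, 4 of the 7 members with at least 50 UMIs were past 1.5-fold higher in MCT1-KO and 0 past 1.5-fold lower, where 11.5% of 1953 genes were higher and 17.2% lower. Cd40lg was at 58.8 CPM in FLOX (23 UMIs, 37.3 to 88.2) and 188 CPM in MCT1-KO (40 UMIs, 134 to 256), a ratio of 3.20 (1.87 to 5.60). A Cd40lg UMI was found in 20.9% of FLOX (11.9 to 32.6) and 26.0% of MCT1-KO (16.5 to 37.6) CD4+ T cells, so these intervals overlapped. In MCT1-KO 1 cell held 8 of the 40 UMIs. Tnfrsf4 was at 368 CPM (144 UMIs) and 635 CPM (135 UMIs), a ratio of 1.73 (1.35 to 2.20). Both differences in CPM exceeded counting error. Cd28 was at 187 CPM (73 UMIs) and 315 CPM (67 UMIs), a ratio of 1.69 (1.19 to 2.39), the opposite side of 1 from CD8+ T cells. Icos was at 304 CPM (119 UMIs) and 456 CPM (97 UMIs), a ratio of 1.501 (1.14 to 1.98) that sits on the limit. The intervals of Tnfrsf9 (606 and 527 CPM, ratio 0.870, 0.689 to 1.09), Tnfrsf18 (325 and 419 CPM, 1.29, 0.973 to 1.71) and Cd27 (123 and 84.7 CPM, 0.690, 0.378 to 1.21) included 1. The median ratio of the 7 was 1.501, against 0.962 over the 1953 genes. Of the 4 calls, 3 were lost under some alternative: Tnfrsf4 was at 1.499 after free RNA was subtracted, Cd28 at 1.47 after it and 1.43 with each cell classed by its own marker UMIs, and Icos was as low as 1.14, as a mean over cells. The ratio of Cd40lg was 1.79 (1.01 to 3.24) without the smaller T/NK-like cluster (cluster 21, 85 cells) and 1.68 as a mean over cells. Without cluster 21, Cd28 was at 1.46 and Icos at 1.36. Only 67 and 73 cells stood behind these values, and the myeloid markers summed to 1373 CPM in the FLOX and 212 CPM in the MCT1-KO CD4+ T cells. The acinar markers summed to 92.0 and 3270 CPM there. Of the 6 heat shock and immediate early genes with at least 50 UMIs, 5 were past 1.5-fold lower, beside 17.2% of genes (median ratio 0.331). The part of these shifts in the CD4+ ratios was not tested.

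**Figure D2:**
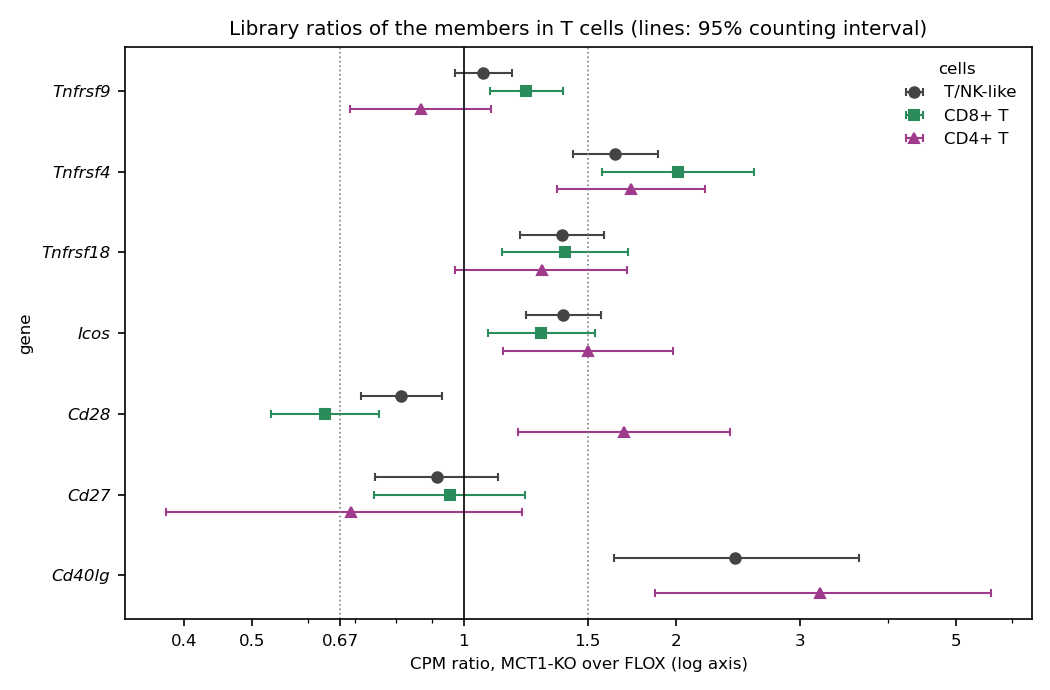
Ratio of CPM in MCT1-KO over FLOX (log axis) for 7 members (rows) in T/NK-like cells (circles), CD8+ T cells (squares) and CD4+ T cells (triangles), with lines for the 95% counting interval, a solid line at 1 and dotted lines at 1.5-fold. Tnfrsf4 lies right of 1 in all 3 sets, Cd40lg is farthest right, at 3.20 in CD4+ T cells, and Cd28 lies left of 1 in CD8+ T cells (0.636) and right of 1 in CD4+ T cells (1.69).

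The members also divided the lymphocyte subsets. Cd40lg had 63 UMIs in 140 CD4+ T cells and 1 UMI in 542 CD8+ T cells, and the other 51 of its 115 T/NK-like UMIs lay in 282 T/NK-like cells outside the 3 gates (70.7 CPM). Tnfrsf4 was higher in CD4+ than in CD8+ T cells of both libraries (368 against 89.5 CPM in FLOX and 635 against 180 CPM in MCT1-KO). Cd27 was at 123 CPM in CD4+ and 131 CPM in CD8+ T cells of FLOX and at 84.7 and 126 CPM in MCT1-KO, where the CD4+ value rested on 18 UMIs and its interval (50.2 to 134) overlapped that of CD8+ T cells (103 to 151). NK cells had a Tnfrsf9 level of 335 CPM in FLOX (21 UMIs) and 372 CPM in MCT1-KO (32 UMIs), and Tnfrsf18 was at 223 CPM (14 UMIs) and 174 CPM (15 UMIs) there. Tnfrsf4 had no UMI in the 51 NK cells, which allows a share of cells with a UMI of up to 6.98%, and Cd40lg had none either. Icos and Cd28 rested on 11 and 6, and on 12 and 9 UMIs in NK cells, and Cd27 on 1.

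**Figure D3:**
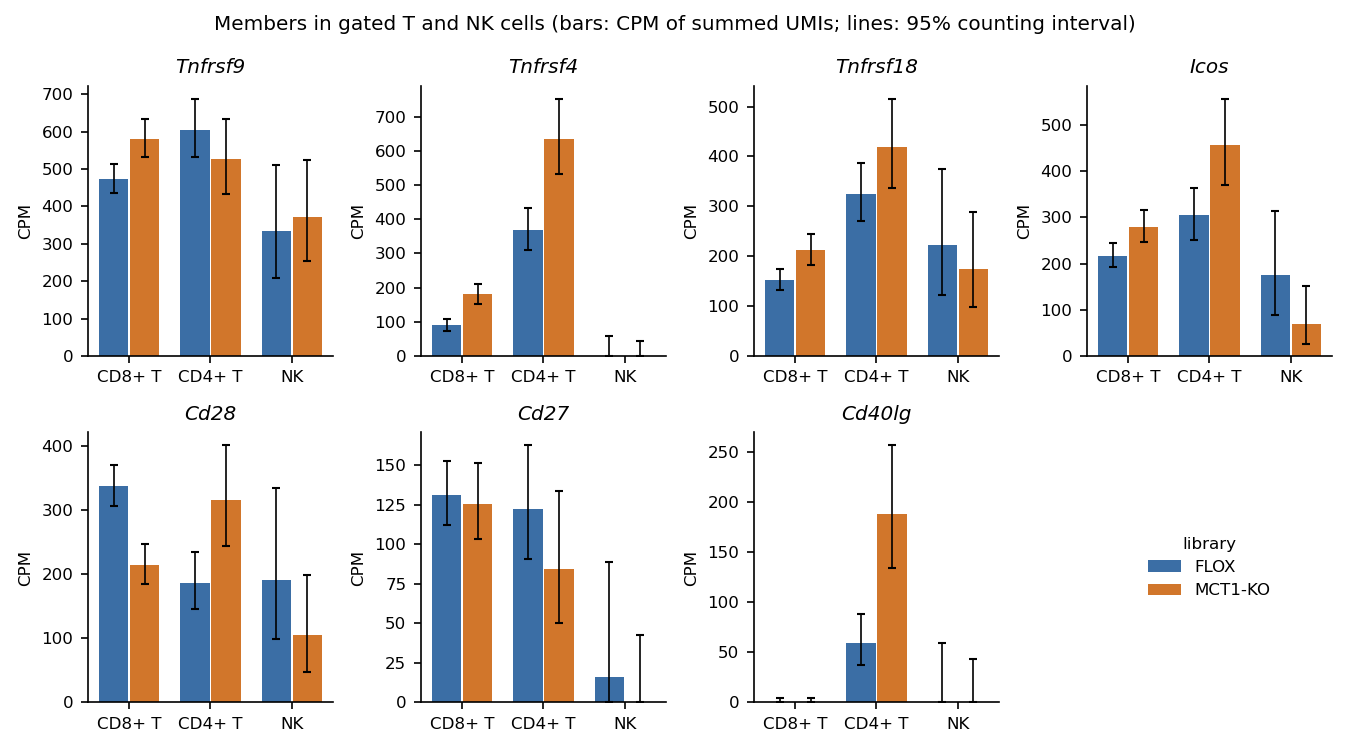
CPM of 7 members in CD8+ T, CD4+ T and NK cells, with a bar for each library and lines for the 95% counting interval. Of these 3 gates Cd40lg has bars in CD4+ T cells and is at or near 0 in the others, Tnfrsf4 is higher in CD4+ than CD8+ T cells and at 0 in NK cells, and Tnfrsf9 is high in all 3.

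Regulatory T cells are known to carry OX40, GITR and 4-1BB at rest, and the few cells with a Foxp3 UMI were higher in all 3. Only 6 of the 140 CD4+ T cells had a Foxp3 UMI (3 in each library). Tnfrsf4 was at 1148 CPM in them (33 UMIs) and 428 CPM in the other 134 (246 UMIs), a ratio of 2.68 (1.81 to 3.87). Tnfrsf18 was at 800 CPM (23 UMIs) against 336 CPM (193 UMIs), a ratio of 2.38 (1.475 to 3.68), and Tnfrsf9 at 1009 CPM (29 UMIs) against 557 CPM (320 UMIs), a ratio of 1.81 (1.19 to 2.65). Icos rested on 12 UMIs in the Foxp3+ cells (ratio 1.18, 0.598 to 2.10), and its ratio ran from 0.977 to 2.08 over the alternative settings. The ratio of Tnfrsf9 ran from 1.22 to 2.48 over them. With the gate widened, after the values were seen, to T/NK-like cells without a Cd8a or Cd8b1 UMI, 28 cells had a Foxp3 UMI, and 312 had none but a UMI of Cd3d, Cd3e or Cd3g. Tnfrsf4 was then at 1207 and 376 CPM (3.21, 2.63 to 3.90), with ratios of 3.16 in FLOX and 3.17 in MCT1-KO, and Tnfrsf18 at 734 and 306 CPM (2.40, 1.87 to 3.05). The order of Tnfrsf4 and Tnfrsf18 held in both libraries, and Tnfrsf9 is not given for the wider gate. Cd40lg went the other way, with 1 UMI in the 28 Foxp3+ cells and 101 UMIs in the 312 others, and Cd28 was at 160 and 253 CPM (0.634, 0.376 to 1.01).

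4-1BB is induced by antigen, and PD-1 (Pdcd1) marks CD8+ T cells that have met it. CD8+ T cells with a Pdcd1 UMI numbered 218 in FLOX and 114 in MCT1-KO. Tnfrsf9 was at 528 CPM in the Pdcd1+ and 314 CPM in the Pdcd1- FLOX cells (ratio 1.69, 1.36 to 2.11), and at 708 and 383 CPM in MCT1-KO (1.85, 1.51 to 2.27). The gate gave the same order in both libraries. Tnfrsf4 was also higher in Pdcd1+ cells of FLOX (107 and 37.3 CPM, 2.88, 1.58 to 5.76), while in MCT1-KO (201 and 148 CPM) the interval of its ratio included 1 (1.36, 0.963 to 1.93). Icos was lower in Pdcd1+ cells of both libraries, with ratios of 0.700 (0.541 to 0.911) and 0.558 (0.430 to 0.721). The pooled ratio of Cd28 was 0.983 and that of Cd27 1.24 (0.943 to 1.64). Subtracting the estimated free RNA turned the pooled Tnfrsf9 ratio of Pdcd1+ over Pdcd1- cells from 1.70 to 0.846, with 100% of the UMIs of FLOX Pdcd1- cells taken as free RNA.

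Tnfrsf9, Tnfrsf4 and Tnfrsf18 tended to be found in the same CD8+ T cells. With 522 CD8+ T cells thinned to 1000 UMIs, 31 had both Tnfrsf9 and Tnfrsf4, where the product of the 2 shares gives 15.6 cells, a ratio of 1.99 (1.87 in FLOX and 1.97 in MCT1-KO). Tnfrsf4 and Tnfrsf18, the neighbors on chromosome 4, were found together in 15 cells against 6.01 (2.50), and Tnfrsf9 and Tnfrsf18 in 32 against 20.4 (1.57). Tnfrsf9 and Icos did not show this, with 33 cells against 36.3 (0.910), nor did Tnfrsf9 and Cd28, with 37 cells against 42.3 (0.875). In 135 thinned CD4+ T cells the ratio was 1.39 for Tnfrsf4 with Tnfrsf18 (20 cells) and 1.43 for Icos with Cd28 (16 cells). These are descriptions of cells from 1 library per label, which share depth and cell state.

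The signalling genes downstream were given by 2 fixed lists. Of 11 TRAF and NF-kB genes, all with at least 50 UMIs in T/NK-like cells, 2 were past 1.5-fold higher in MCT1-KO (6.03% of all genes were): Nfkb1, the p105/p50 subunit, at 337 and 523 CPM (ratio 1.55), and Map3k14, the NIK kinase of the noncanonical pathway (1.55). Traf5, an adaptor for OX40 and CD27, was past 1.5-fold lower (0.593; 9.51% of all genes were), and the median of the list was 1.12 against 0.970 for all genes. Of 10 genes of CD28 and ICOS signalling, 0 were past 1.5-fold higher and 1 was lower, Pik3cd, a catalytic subunit of phosphoinositide 3-kinase, at 111 and 60.2 CPM (0.541), with a list median of 0.920; 1 lower gene in each list is near the share over all genes. In CD4+ T cells 4 of the 5 genes of this list with at least 50 UMIs were past 1.5-fold higher, beside 11.5% of genes, whereas in CD8+ T cells 1 of the 10 was higher and 3 were lower (6.72% and 10% of genes), with a median of 0.857.

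State genes in the same T/NK-like cells gave the setting of these receptors. Of 5 checkpoint and exhaustion genes, 3 were past 1.5-fold lower in MCT1-KO, where 9.51% of all genes were (Lag3 0.515, Tox 0.538, and Pdcd1 0.613, at 418 and 256 CPM). Of the 4 naive and recirculation genes with at least 50 UMIs, 3 were past 1.5-fold higher, where 6.03% were (Ccr7 2.40, S1pr1 1.85, Lef1 1.75), and of 4 regulatory genes Il2ra (1.55) and Ikzf4 (1.67) were, while Ikzf2, the most counted of them, was at 484 and 377 CPM (0.781, 0.704 to 0.865) and Foxp3 had 35 and 19 UMIs (0.729, 0.394 to 1.31). Tcf7, the other naive gene with at least 50 UMIs, was at 1.04 (0.698 to 1.54). These pooled values did not hold in each subset: Ccr7 was at 5.40 in CD8+ and 0.598 (0.294 to 1.14) in CD4+ T cells, Ikzf2 was at 1.21 in CD8+ and 0.290 (0.210 to 0.393) in CD4+ T cells, and Pdcd1 was at 1.08 (0.794 to 1.45) in CD4+ T cells. In CD8+ T cells Tcf7 was at 0.378 (0.160 to 0.806) on 34 FLOX and 9 MCT1-KO UMIs, and S1pr1 at 1.07 (0.399 to 2.77). Ctla4, which competes with CD28 for its ligands and lies between Cd28 and Icos, was at 683 and 480 CPM (0.704, 0.643 to 0.770). In CD8+ T cells Ctla4 was at 0.555 (0.486 to 0.632), whereas in CD4+ T cells it was at 1.21 (0.993 to 1.46), where Cd28 was at 1.69.

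Outside T cells, Tnfrsf9 was the exception among the members. In ductal-like cells it was at 42.8 CPM in FLOX (1361 UMIs, 40.5 to 45.1) and 17.7 CPM in MCT1-KO (931 UMIs, 16.6 to 18.9), a ratio of 0.414 (0.380 to 0.450). The barcodes with 10 to 100 UMIs stood at 24.8 and 15.3 CPM, so the ductal-like level was above that of free RNA by more in FLOX than in MCT1-KO. The direction was shared by the 4 ductal-like clusters, with ratios of 0.421, 0.295, 0.570 and 0.637. Of the 2 members with at least 50 UMIs in ductal-like cells, Tnfrsf9 was past 1.5-fold lower, where 8.45% of 13152 genes were, and Tnfrsf4 past 1.5-fold higher (18 and 50 UMIs, ratio 1.68), where 5.54% were; that Tnfrsf4 level lay far below the 7.43 CPM of barcodes with 10 to 100 UMIs. In the same ductal-like cells 6 of the 7 heat shock and immediate early genes were past 1.5-fold lower (median ratio 0.200, against 1.01 over all genes), and the markers of myeloid cells summed to 433 and 164 CPM, of PSC to 2165 and 1346 CPM (the class's own ductal markers to 1804 and 2083 CPM) and of acinar cells to 35.4 and 644 CPM, whose part in the Tnfrsf9 ratio was not tested. Classed singly by their own marker UMIs, 53.3% of FLOX and 69.2% of MCT1-KO cells of these clusters were ductal-like. Endothelial-like cells had Tnfrsf9 at 57.4 CPM in FLOX (38 UMIs) and 15.4 CPM in MCT1-KO (7 UMIs), a ratio of 0.268. In myeloid-like cells it was at 8.19 and 3.96 CPM, below the free RNA level of its own library.

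A UMI of Tnfrsf9 was found in 713 FLOX (28.9%) and 672 MCT1-KO (18.5%) ductal-like cells. A T/NK marker UMI occurred in 15.4% of FLOX ductal-like cells with and 12.6% of those without a Tnfrsf9 UMI, and in 8.93% and 5.51% in MCT1-KO. Scaled to depth, the T/NK markers stood at 11.99 against 16.4 CPM in FLOX and at 10.7 against 5.36 CPM in MCT1-KO. Cells with a Tnfrsf9 UMI were deeper (median 19479 against 9964 UMIs in FLOX and 17810 against 15240 in MCT1-KO) and 13.1% of them in both libraries were among the barcodes with the highest doublet scores, against 9.96% of the others. Of the 11 TRAF and NF-kB genes, 3 were past 1.5-fold higher in the pooled cells with a Tnfrsf9 UMI: Traf1 at 32.0 against 18.2 CPM (ratio 1.76), Nfkb1 at 793 against 452 CPM (1.76), and Birc3 (1.60), whose interval in FLOX included 1 (1.17, 0.935 to 1.47). The other 8 ranged from 0.949 (Map3k14) to 1.43 (Rel). Of 9 genes of the response to low oxygen, a list chosen after the values were seen, 4 were past 1.5-fold higher in pooled cells. Within FLOX and MCT1-KO the ratio was 2.44 and 2.25 for Car9, 1.70 and 1.51 for Bnip3, 1.57 and 1.61 for Egln3, and 1.65 and 1.38 for Ero1l, so the pooled ratios of Bnip3 (1.82) and Egln3 (1.80) exceeded those within either library. The other 5 ranged from 1.14 (Ldha) to 1.31 (Vegfa) when pooled, and Ndufa4l2 was at 0.803 (0.618 to 1.04) in FLOX. The pooled median over 13151 genes was 0.971 and 1.69% of genes were past 1.5-fold higher. Traf1, Nfkb1, Car9, Bnip3 and Egln3 were each past 1.5-fold in both libraries. These ratios pool the 4 ductal-like clusters, and none was taken within a cluster. Car9 was among the leading genes of cluster 4, the deepest of them (median 20763 UMIs). The part of cluster and depth in these ratios was not tested.

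**Figure D4:**
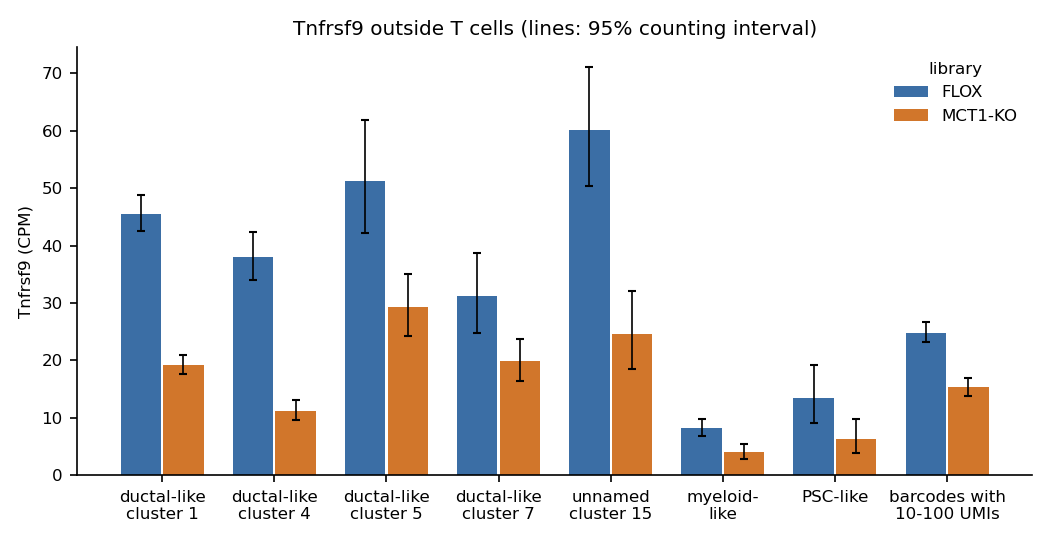
Tnfrsf9 in CPM in the 4 ductal-like clusters, an unnamed cluster of cells with interferon response genes (cluster 15), myeloid-like and PSC-like cells, and barcodes with 10 to 100 UMIs; bars are libraries and lines are 95% counting intervals. In the 4 ductal-like clusters and cluster 15 the FLOX bar is the taller and stands above the FLOX bar of the barcodes with 10 to 100 UMIs (24.8 CPM), while the myeloid-like bars (8.19 and 3.96 CPM) lie below it.

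Cd40 was ordered by its antigen-presenting cells. Pooled over libraries it was at 57.1 CPM in dendritic-like (46.8 to 69.1), 45.7 CPM in myeloid-like (43.1 to 48.5) and 34.4 CPM in B-like cells (17.8 to 60.1), and the intervals of these neighbors all overlapped. The order differed by library: B-like cells, with few UMIs, stood at 77.8 CPM in FLOX (25.3 to 181) and 24.6 CPM in MCT1-KO (9.90 to 50.7). Barcodes with 10 to 100 UMIs stood at 4.82 CPM. In myeloid-like cells Cd40 was at 43.0 CPM in FLOX (630 UMIs, 39.7 to 46.5) and 50.04 CPM in MCT1-KO (467 UMIs, 45.6 to 54.8), a ratio of 1.16 (1.03 to 1.31), and 0.894 with the estimated free RNA subtracted. The clusters split: cluster 6 had 63.7 and 91.0 CPM (1.43, 1.20 to 1.71), cluster 2 had 32.7 and 29.6 CPM (0.907), and cluster 13 had 50.2 and 31.7 CPM (0.632, 0.419 to 0.934). These clusters rest on the integration: without it the 2 larger myeloid-like clusters were mostly of 1 library each (308 FLOX and 1731 MCT1-KO cells, and 1640 and 77). Of the 2 members with at least 50 UMIs in myeloid-like cells, Tnfrsf9 was past 1.5-fold lower (9.33% of 11072 genes were) and none was higher (6.39%). Of the 2 members with at least 50 UMIs in dendritic-like cells, Cd40 (59.3 and 53.5 CPM, ratio 0.903) and Tnfrsf18 (33.0 and 24.6 CPM, 0.745, 0.395 to 1.35), none was past 1.5-fold, where 9.31% of 4481 genes were higher and 13.1% lower. By their own marker UMIs, 70.4% of FLOX and 41.3% of MCT1-KO cells of the dendritic-like cluster were dendritic-like. The dendritic markers summed to 1003 and 676 CPM there, and the ductal markers to 160 and 514 CPM. The part of this mixture in the dendritic-like ratios was not tested. Cd40 in B-like cells rested on 5 UMIs in 32 FLOX and 7 UMIs in 178 MCT1-KO cells. A Cd40 UMI was found in 20.6% and 19.7% of myeloid-like cells, with median depths of 6342 and 5127 UMIs, against 1.13% and 0.496% of the deeper ductal-like cells. After thinning to 1000 UMIs the myeloid-like shares were 4.42% and 5.55%.

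Dendritic cells that have matured and move to lymph nodes carry Ccr7 and raise CD40, and Cd40 was higher in the Ccr7+ cells of the dendritic-like class. Cd40 was at 162 CPM in the 23 FLOX cells with a Ccr7 UMI and 37.9 CPM in the 92 without, a ratio of 4.27 (2.59 to 7.02), and at 135 and 20.4 CPM in 28 and 81 MCT1-KO cells, a ratio of 6.61 (3.10 to 15.3). Both libraries gave the same order. Receptors of T cells were found there too: Tnfrsf18 was at 69.2 against 19.1 CPM in pooled libraries (3.63, 2.07 to 6.36), and Tnfrsf4 had 22 UMIs in the 51 Ccr7+ and 1 UMI in the 173 Ccr7- cells, 19 of them in FLOX. The 9 T/NK markers summed to 101 CPM in FLOX and 8.68 CPM in MCT1-KO dendritic-like cells, a sum over the class that was not split by Ccr7. By gate, Lag3, Tox, Tigit, Pdcd1 and Ikzf2 had 0 UMIs in Ccr7+ and 16, 12, 8, 2 and 46 UMIs in Ccr7- cells. Other list genes went the other way, with Ikzf4 at 9 against 0 UMIs, Tcf7 at 4 against 2 and Il2ra at 15 against 14. The part of T cell RNA in the receptor values was not tested. Ligand genes were also higher in Ccr7+ cells of the pooled libraries. Cd80 was at 336 against 92.0 CPM (3.65) and Tnfsf9, the ligand of 4-1BB, at 200 against 57.2 CPM (3.50), while Cd86 differed less, at 665 against 470 CPM (1.41). Cd70, the ligand of CD27, had 39 UMIs against 1, and Tnfsf4, the ligand of OX40, 20 against 0. The libraries made up unlike parts of the gates. FLOX and MCT1-KO gave 204046 and 200540 of all UMIs in Ccr7+ cells, against 977055 and 490639 in Ccr7- cells. The part of library differences in these pooled ligand values was not tested.

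**Figure D5:**
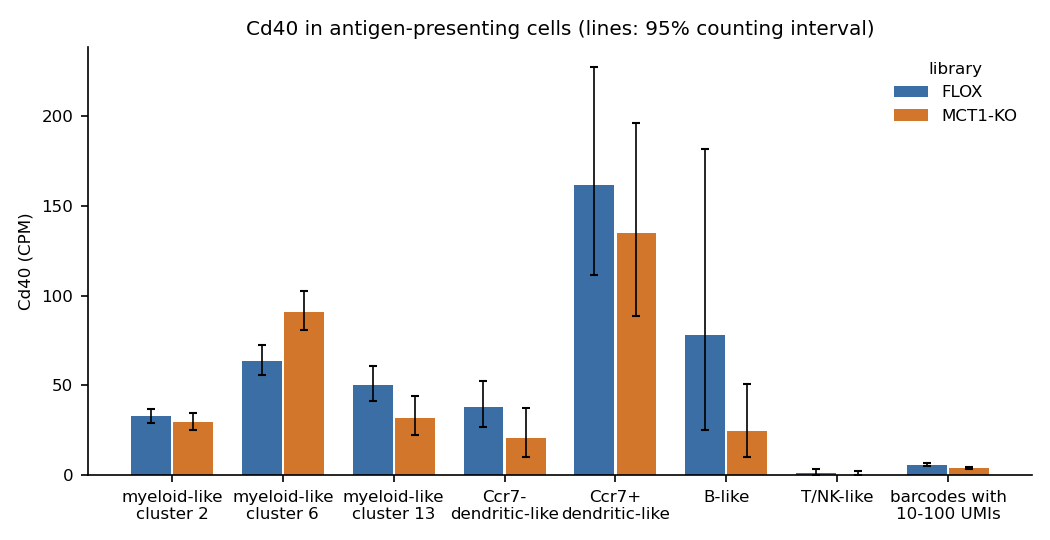
Cd40 in CPM in the 3 myeloid-like clusters, dendritic-like cells without and with a Ccr7 UMI, B-like cells, T/NK-like cells and barcodes with 10 to 100 UMIs; bars are libraries and lines are 95% counting intervals. The Ccr7+ dendritic-like bars (162 and 135 CPM) are the tallest, cluster 6 is the tallest of the myeloid-like clusters, and T/NK-like cells are at or near 0.

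The ligands of these receptors were read in the cells that present them. Tnfsf9 was the ligand that differed most between libraries in myeloid-like cells, at 58.1 CPM in FLOX and 149 CPM in MCT1-KO (ratio 2.56, 2.35 to 2.79), and it was highest in cluster 6 (132 and 352 CPM), the myeloid-like cluster with the highest Cd40. In dendritic-like cells Tnfsf9 was at 64.3 and 129 CPM (2.00). Of those cells, 70.4% in FLOX and 41.3% in MCT1-KO were dendritic-like by their own marker UMIs. In ductal-like cells Tnfsf9 was at 72.2 and 48.0 CPM (0.665, 0.629 to 0.704). Of the 7 heat shock and immediate early genes, 5 were past 1.5-fold lower in myeloid-like cells (median ratio 0.211), with Hspa1a at 1093 and 115 CPM, and the acinar markers summed to 89.3 and 1094 CPM there, whose part in the Tnfsf9 ratio was not tested. In ductal-like cells both Tnfrsf9 and its ligand were lower in MCT1-KO. Of the 5 partner genes with at least 50 UMIs in myeloid-like cells, 2 were past 1.5-fold higher, where 6.39% of genes were (Tnfsf9, and the GITR ligand Tnfsf18 at 1.84 and 3.54 CPM) and 1 lower, where 9.33% were, the ICOS ligand Icosl at 19.2 and 11.4 CPM (0.592). Cd86 was at 660 and 521 CPM there (0.789). Cd80 was higher in neutrophil-like cells (700 and 403 CPM, 0.575, 0.508 to 0.650) than in dendritic-like (130 and 169 CPM) or myeloid-like cells (78.9 and 73.2 CPM).

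Plasma-like cells held Cd28 at 53.8 CPM over both libraries (44 UMIs, 39.1 to 72.2), the highest level of Cd28 in a named class other than T/NK-like cells. CD28 is known from long-lived plasma cells as well as T cells. The level was 48.8 CPM in FLOX and 57.5 CPM in MCT1-KO (1.18, 0.620 to 2.31). The 9 T/NK markers summed to 25.8 and 10.7 CPM in these cells, against 6483 and 4582 CPM in T/NK-like cells. Ctla4 was there too, with 22 UMIs in 35 FLOX and 112 UMIs in 59 MCT1-KO plasma-like cells (63.1 and 239 CPM).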

How the data were processed

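Single-cell 3' RNA-seq libraries of whole tumors were analysed, 1 per label (FLOX, MCT1-KO), with groups taken from the genotype label of each sample. Per the labels a SeekOne MM microwell kit was used, while the methods name 10x Chromium or SeekOne DD. The authors trimmed reads with Fastp and made the deposited UMI counts per gene and barcode with SeekOneTools (version not given in the sources used here) and filtered them in Seurat 4.0.0, per the submitters' processing notes. The methods and notes name human GRCh38, but the deposited counts are of mouse Ensembl genes, 32285 in all. The deposited count matrices were unfiltered, with totals of 177334432 (FLOX) and 151118092 (MCT1-KO) UMIs. No column of sample values was left out (0).

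Barcodes with at least 500 UMIs, 200 to 5000 genes and up to 8% mitochondrial UMIs were kept, which left 61149689 and 81494894 UMIs. Seurat 5.3.0 (R 4.3.3) integrated the libraries on 2000 variable genes and clustered them in 20 dimensions at resolution 0.8, with the members and their partner genes left out of the variable genes. A cluster was named "X-like" where at least 3 fixed markers were detected in 10% of its cells and 3 (ductal-like: 1) were 2-fold above the other clusters, unless another class had more markers among its leading 10 genes. These thresholds were set after clusters were seen. Ductal-like clusters 1, 5 and 7 had 1 marker 2-fold up and none among their leading genes. The unnamed clusters held 20.3% of FLOX and 27.4% of MCT1-KO cells. Doublets were kept, and the 8% highest scores left out as an alternative.

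UMIs were summed per class and library and given as CPM with exact Poisson intervals. Ratios have conditional exact intervals and shares Clopper-Pearson ones (95%, counting error only). With 1 library per label there was no test: a gene with at least 50 UMIs over both libraries was called past 1.5-fold by its ratio alone. Cells were thinned to 1000 UMIs for shares. The counting script was tested on simulated Poisson counts for T/NK-like cells (7195 genes), where 95.7% of intervals held the true ratio. The intervals assume Poisson counts too, so this checks the script only. It cannot show how well the intervals cover in these data, where UMIs of a gene can lie in few cells. The text names the 8 members, their partner ligands and Ctla4, and genes of the fixed lists with at least 50 UMIs. Members, lists and rules were chosen with earlier results of these data known. The tables were made in Python 3.11.15 with scipy 1.17.1, numpy 2.4.6, scikit-learn 1.9.0 and pandas 2.3.3. Gene positions are from GENCODE on GRCm38 and promoters from RefSeq GRCm38.p6.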

Additional observations from a re-analysis of the deposited data

Results flagged for a closer look

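The library ratio (MCT1-KO over FLOX) of 2 members lay on opposite sides of 1 in different cells, with 1 library on each side, so the difference between cell types was not tested. Tnfrsf9 was at 1.23 in CD8+ T cells but at 0.414 in ductal-like, 0.484 in myeloid-like, 0.471 in PSC-like and 0.449 in acinar-like cells. Classed singly by their own marker UMIs, only 11.7% of FLOX but 60.5% of MCT1-KO cells of the acinar-like clusters were acinar-like. The pooled levels in myeloid-like (6.54 CPM), PSC-like (9.28 CPM) and acinar-like cells (12.02 CPM) were below the 20.5 CPM of barcodes with 10 to 100 UMIs, whereas ductal-like cells stood at 27.2 CPM. With the estimated free RNA subtracted, the CD8+ ratio of Tnfrsf9 was 0.760, on the same side of 1 as in the other cells. The CD8+ ratios of Tnfrsf4, Tnfrsf18, Icos and Cd28 fell by nearly the same factor. Cd28 was at 0.636 in CD8+ T cells and 1.69 in CD4+ T cells.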

How the results depend on the processing

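No paired analysis was possible because there was 1 library per label, and no replicate could be left out. Subtracting free RNA estimated from acinar genes gave 0.763 for the T/NK-like ratio of Tnfrsf9, 1.17 for Tnfrsf4, 0.982 for Tnfrsf18, 0.978 for Icos, 0.577 for Cd28 and 0.650 for Cd27, so Tnfrsf9, Tnfrsf18 and Icos crossed 1. In CD8+ T cells Tnfrsf9 (0.760), Tnfrsf18 (0.861) and Icos (0.785) crossed 1, as did Cd40 in myeloid-like cells (0.894) and the Pdcd1+ over Pdcd1- ratio of Tnfrsf9 (0.846). The estimate took 40.9% of FLOX and 16.2% of MCT1-KO T/NK-like UMIs and 100% of those of FLOX Pdcd1- CD8+ T cells. The T/NK-like ratios listed all fell by nearly the same factor. Without the smaller T/NK-like cluster (cluster 21), a choice made after seeing the data, the ratio of Cd28 was 0.712 in T/NK-like cells and that of Cd40lg 1.79 in CD4+ T cells; as a mean over cells the latter was 1.68. Leaving out likely doublets moved the Foxp3+ over Foxp3- ratio of Tnfrsf4 to 3.96, and thinned gates moved that of Tnfrsf18 to 4.55 (0.528 to 17.8) and gave no value for Tnfrsf9, Tnfrsf4 and Icos. Thinned to 500 rather than 1000 UMIs, the pooled T/NK-like shares were 19.3% for Tnfrsf9, 9.07% for Tnfrsf4, 8.78% for Tnfrsf18, 15.3% for Icos, 13.7% for Cd28, 4.54% for Cd27 and 2.37% for Cd40lg, and 2.38% for Cd40 in myeloid-like cells. With a minimum of 20 UMIs, 9.10% of T/NK-like and 10.96% of CD8+ T cell genes were past 1.5-fold higher. Over all settings the T/NK-like ratio ranged from 1.17 to 1.85 for Tnfrsf4, 1.71 to 2.58 for Cd40lg and 0.577 to 0.866 for Cd28, and the ductal-like ratio of Tnfrsf9 from 0.363 to 0.424. The cause of these shifts was not tested. Without integration only 754 FLOX cells were ductal-like. The 67 and 73 CD4+ T cells and the 6 Foxp3+ cells limit the values drawn from them.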

Other observations

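Genes whose levels followed those of each member were found by Pearson's r of log2(CPM + 1) over 26 points (10 named classes and the CD8+ T, CD4+ T and NK gates in each library) among 12699 genes. This is a description only, since the points share libraries and depth and the gates are part of the T/NK-like class. Icos went with Sh2d1a (0.98), the adaptor SAP, and Tigit (0.97). Cd27 went with the chemokine receptor Cxcr6 (0.97), Tnfrsf4 with Themis (0.97), and Tnfrsf9 with Trbc2 (0.92). Cd40lg went with Cd4 (0.90), and Cd40 with Uvrag (0.91), a gene of autophagy and endosome traffic. The CD4+ and CD8+ T gates were defined by Cd4 UMIs, so the r with Cd4 is partly set by the gating.

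An unnamed cluster of 50 cells (cluster 22) held both T cell and macrophage genes, and Tnfrsf9 was at 219 CPM in FLOX and 290 CPM in MCT1-KO there.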
